A study of Mus musculus with 8 samples.

Results

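The Myc family and G1 cyclin genes are 10 genes that carry a growth signal into the decision of a cell to copy its DNA: Myc, Mycn, Max, Ccnd1, Ccnd2, Ccnd3, Cdk4, Cdk6, Cdkn1b and Rb1. They were taken by symbol and were 10 of the 26608 gene symbols listed. Reads were present for 9 of them, and Cdk4 was at 0 in all 8 libraries. The study set outgrowths of the neural plate against normally shaped neural plate in mouse embryos of diabetic dams. Transcripts were counted by SAGE, which reads 1 short tag per transcript, next to the last cutting site of an enzyme.

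All embryos were of strain FVB at embryonic day 8.5, and the dams of both groups were diabetic, so no comparison here concerns diabetes itself. The open neural tube group held 4 libraries (9, 10, 13 and 14) of tissue cut by laser just anterior to where closure begins. The protrusion group held 4 libraries, of which protrusion 1 was labelled as separated from the plate and protrusions 2, 3 and 4 as attached to it. Separate embryos for each library are not stated, and protrusions 1 and 2 have titles with a common stem. The p-values below therefore refer to library spread, part of which may be technical. In tissue of this kind, fewer cells of a type and less RNA per cell cannot be told apart.

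Myc and its relative Mycn encode transcription factors that bind the DNA sequence CACGTG, the E-box, as a pair with Max, and raise the output of genes for growth and ribosome production. In the early nervous system Mycn is the form best known from progenitor cells. D-type cyclins, encoded by Ccnd1, Ccnd2 and Ccnd3, activate the kinases Cdk4 and Cdk6, which phosphorylate the retinoblastoma protein encoded by Rb1. Phosphorylation frees E2F transcription factors and lets the cell pass from G1 into S phase, and the protein p27, encoded by Cdkn1b, holds cyclin-dependent kinases back.

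What the assay reads of a gene is the tag that follows its last CATG, the site of the anchoring enzyme of SAGE. The first 25 bases of that tag in the longest coding transcript of each member are given here to show what kind of sequence is counted, with the site in capitals. Coding transcripts of 6 members end in more than 1 tag (Myc 4, Max 2, Ccnd2 3, Ccnd3 5, Cdk6 4 and Cdkn1b 2 different tags), and which of them entered a gene's count was not given. They were read from GENCODE M21 transcripts, which held all 10 members.
Myc: CATGtaccataattttttttattta
Mycn: CATGtttatgaaaataaatagcaat
Max: CATGgaaataaagagtatgttgtac
Ccnd1: CATGgtccaggaaaaaaaaaaagac
Ccnd2: CATGtacctcagatctatcagttat
Ccnd3: CATGctgccttaataaagatttcgg
Cdk4: CATGtggagcgttggctgtatcttt
Cdk6: CATGggacttccctagagagagcta
Cdkn1b: CATGttttgtgcatttgtaaatgct
Rb1: CATGatcatcacacagattagttag

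None of these 10 tags occurred after a CATG in a transcript of another gene of that set. The tags began 25 bases (Ccnd3) to 435 bases (Ccnd2) before the 3′ end of the transcript in 9 members, and 1224 bases before it in Cdk4. A tag count does not grow with transcript length, so levels of different members are set side by side below as CPM, a library's counts scaled to a fixed total, with the reserve that tags can differ in how well they are recovered and assigned.

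Total counts were 5668054 to 16655583 reads per library, and 3 reads, the level taken as the floor, stood for 0.180 to 0.529 CPM. Library content differed between the groups: with each library thinned to the smallest total, the open neural tubes had 9920 to 11258 genes with a read and the protrusions 14380 to 15533. Summed markers of neural plate, with reads for 10 of 10, stood at 998 to 1457 CPM in open neural tubes 9, 10 and 14, at 244 CPM in open neural tube 13 and at 1279.7 CPM in protrusion 1. The attached protrusions had 518 to 905 CPM, and genes of the list went both ways. There Sox1, Pax6, Pax3 and Zic1 stood at 7.21 CPM or less, against 34.7 CPM or more in open neural tubes 9, 10 and 14. In open neural tube 13 they stood at 15.3, 4.92, 7.75 and 4.74 CPM. Sox3 was higher in attached protrusions (23.9 to 50.7 CPM) than in any open neural tube (at most 3.18 CPM). So was Cdh2 (91.9 to 144 against 31.4 to 88.3 CPM). Sox2, Zic2, Ncam1 and Nes overlapped with the open neural tubes. Open neural tube 13 also had the highest sum of paraxial mesoderm markers (1324 CPM, against 119 to 344 CPM in the other open neural tubes and 818 to 1296 CPM in protrusions) and of endothelial markers (351 CPM, against 31.5 to 87.1 CPM and 5.42 to 75.6 CPM). These 3 sums of open neural tube 13 stood apart from those of the other libraries with its label. Its mesoderm sum was made up differently from that of attached protrusions. Pdgfra stood at 475 CPM and Twist1 at 316 CPM, against 54.8 to 157 CPM and 5.02 to 25.2 CPM in attached protrusions. Tbx6 stood at 0.180 CPM and Dll3 at 1.98 CPM, against 158 to 285 CPM and 241 to 369 CPM. Meox1, Foxc1 and Foxc2 were high in both (184, 146 and 180 CPM, against 60.8 to 177, 58.5 to 133 and 74.5 to 171 CPM). Other sums set libraries apart as well. Primitive erythroid markers came to 932 and 1010.2 CPM in open neural tubes 13 and 14, to 63.3 and 10.8 CPM in 9 and 10, and to 2.29 to 58.7 CPM in protrusions. Surface ectoderm markers reached 1036 CPM in protrusion 3, of which 871 CPM came from Cdh1 alone, against 141 to 156 CPM in the other protrusions. Among open neural tubes they came to 324 CPM in 13 and to 52.9 to 80.8 CPM in 9, 10 and 14. The mesoderm marker Msgn1, the endothelial marker Kdr, the erythroid marker Hbb-y, the endoderm markers Apoa1 and Cldn6 and the surface ectoderm marker Dlx5 were at 0 in all 4 open neural tubes. Of these, Kdr, Hbb-y, Apoa1 and Dlx5 were at or near 0 in protrusions too. The part of these differences in the results below was not tested, and for several members the value without open neural tube 13 is given too.

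Mycn had by far the higher tag count of Myc and Mycn in every library. Its level was 670.1, 589.8, 229 and 638 CPM in open neural tubes 9, 10, 13 and 14, and 281, 169.6, 370.2 and 344 CPM in protrusions 1 to 4. Open neural tube 13 lay inside the range of the protrusions, and the other 3 open neural tubes lay above all 4 protrusions. The means were 532 ± 204 CPM in open neural tube and 291 ± 89.2 CPM in protrusions (SD, n = 4 each). The log2 fold change of protrusion against open neural tube was −0.97 ± 0.33 (SE), with adjusted p = 0.186 in edgeR's quasi-likelihood test over all genes. Without open neural tube 13 it was −1.18 (edgeR adjusted p = 0.0531), which is still short of the threshold of 0.05.

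Myc, the founding gene of the family, had a far lower tag count than Mycn, with the reserve on tag assignment given above. It stood at 15.0, 26.1, 20.9 and 14.6 CPM in open neural tubes 9, 10, 13 and 14, and at 11.5, 12.3, 5.16 and 17.4 CPM in protrusions 1 to 4. The groups overlapped through protrusion 4, which lay above open neural tubes 9 and 14. Its log2 fold change was −0.78 ± 0.50 (SE; edgeR adjusted p = 0.520). Among 3413 genes with a mean within 2-fold of that of Myc, 5.41% of the open neural tube values and 0.139% of the protrusion values were at 0.

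Of the reads of Myc and Mycn together, Mycn made up 91.6% to 97.8% in open neural tube. In protrusions its share was 93.2% to 98.6%. On the log2 scale, with 1 CPM added to each gene, the Mycn to Myc ratio was 4.65 ± 0.94 in open neural tube and 4.58 ± 0.95 in protrusions (SD, n = 4 each). The difference of −0.07 was far inside the spread within the groups (exact permutation test, 2-sided p = 0.914, adjusted over 2 ratios 0.914). Without open neural tube 13, which had the lowest ratio, the difference was −0.49 (exact permutation test, adjusted p = 0.514). No difference in the balance of both genes was detectable with 4 libraries a group, and each gene alone had a fitted fold change below 0 that missed the threshold.

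Max, the obligate partner of both, was present at 34.3, 42.3, 20.1 and 37.8 CPM in open neural tubes 9, 10, 13 and 14. It stood at 47.1, 40.3, 48.3 and 31.2 CPM in protrusions 1 to 4. The groups overlapped, with a log2 fold change of 0.22 ± 0.30 (SE; edgeR adjusted p = 0.798). Without open neural tube 13, the lowest library, it was 0.08 (edgeR adjusted p = 0.911). Mean levels of Mycn were well above those of Max in both groups (532 against 33.6 CPM in open neural tube, 291 against 41.7 CPM in protrusions).

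**Figure D1:**
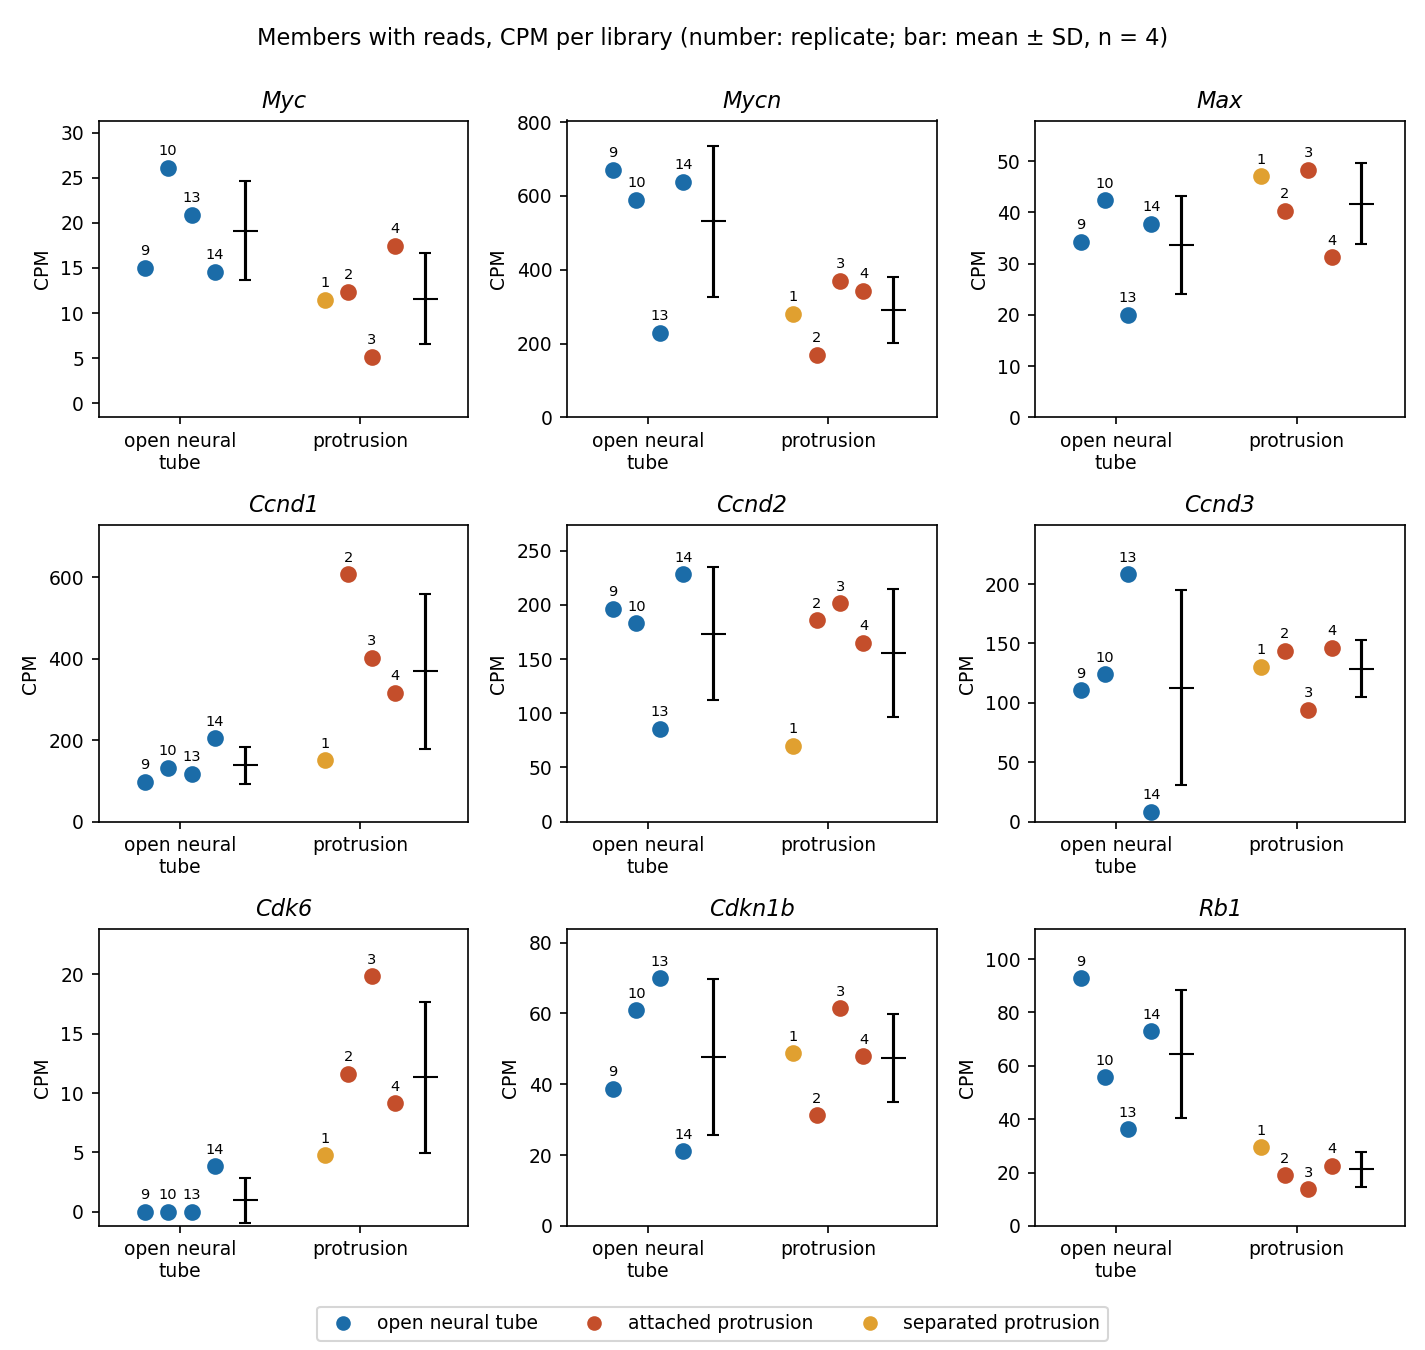
Level of the 9 members with reads in each library, in CPM on linear axes with a separate scale for each gene; numbers are replicates, and the bar to the right of each group is the mean ± SD of 4 libraries. Rb1 is lower in all 4 protrusions than in any open neural tube, Cdk6 is at 0 in 3 of 4 open neural tubes, and the separated protrusion lies among the open neural tubes for Ccnd1.

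Ccnd1 showed the clearest difference among the D-type cyclins, and it was carried by the attached protrusions. Its level was 98.5, 133, 118 and 204 CPM in open neural tubes 9, 10, 13 and 14. It was 150.2 CPM in the separated protrusion 1, and 607, 402 and 317 CPM in the attached protrusions 2, 3 and 4. The separated protrusion lay within the range of the open neural tubes, and all 3 attached protrusions lay above it. Over all 4 protrusions the log2 fold change was 1.33 ± 0.39 (SE) and missed the threshold (edgeR adjusted p = 0.118). With the separated protrusion left out, Ccnd1 rose by 1.59 ± 0.31 on the log2 scale, from 138 ± 46.0 CPM (SD, n = 4) to 442 ± 149 CPM (SD, n = 3), and passed narrowly (edgeR adjusted p = 0.0491). In that comparison 1.5% of 11466 genes passed, 0.759% higher and 0.741% lower. With open neural tube 13 left out as well, the value was 1.53 (edgeR adjusted p = 0.0557), so the call ended there. Cell type markers were called in the same comparison. Of the listed markers, 2 of 10 for paraxial mesoderm and 1 of 10 for endoderm rose. Those that fell were 2 of 10 for neural plate and 1 of 10 for endothelium. The mesoderm markers Tbx6 and Dll3, which also rose with all 8 libraries (edgeR adjusted p = 0.0111 and 0.0265), were likewise lower in the separated protrusion. Tbx6 stood at 26.5 CPM there, against 158 to 285 CPM in attached protrusions, and Dll3 at 6.71 against 241 to 369 CPM, with at most 2.03 CPM of either in any open neural tube. The rest of the mesoderm list was mixed. Meox1 and Foxc2 were higher in the separated protrusion (258 against 60.8 to 177 CPM and 175 against 74.5 to 171 CPM). Twist1 was higher there too (87.7 against 5.02 to 25.2 CPM). Mesp2, Tcf15, Foxc1 and Pdgfra lay within the range of the attached protrusions, and Msgn1 was lower (0 against 1.92 to 9.36 CPM). The part of these tissue differences in the Ccnd1 result was not tested.

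Ccnd2, a D-type cyclin gene known as a target of Myc, stood at 197, 183, 85.8 and 228 CPM in open neural tubes 9, 10, 13 and 14. In protrusions 1 to 4 it stood at 69.9, 186, 202 and 165 CPM. The lowest library of each group, open neural tube 13 and the separated protrusion, lay far below the rest of its group, while the other 6 libraries lay between 165 and 228 CPM. The log2 fold change was −0.25 ± 0.36 (SE; edgeR adjusted p = 0.814) over all 8 libraries and −0.01 ± 0.30 (edgeR adjusted p = 0.993) without the separated protrusion. Without open neural tube 13 it was −0.44 (edgeR adjusted p = 0.515), and without both libraries −0.23 (edgeR adjusted p = 0.578).

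Of the D-type cyclins, Ccnd3 varied most within open neural tube. It was 111, 124, 208 and 8.36 CPM in open neural tubes 9, 10, 13 and 14, where the last value rested on 70 reads, and 130.4, 144, 94.1 and 147 CPM in protrusions 1 to 4. The open neural tubes held both the highest and the lowest of the 8 values, with a coefficient of variation of 72.6% against 18.7% in protrusions. Its log2 fold change was 0.11 ± 0.66 (SE; edgeR adjusted p = 0.967), with the opposite sign, −0.23, without open neural tube 14.

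**Figure D2:**
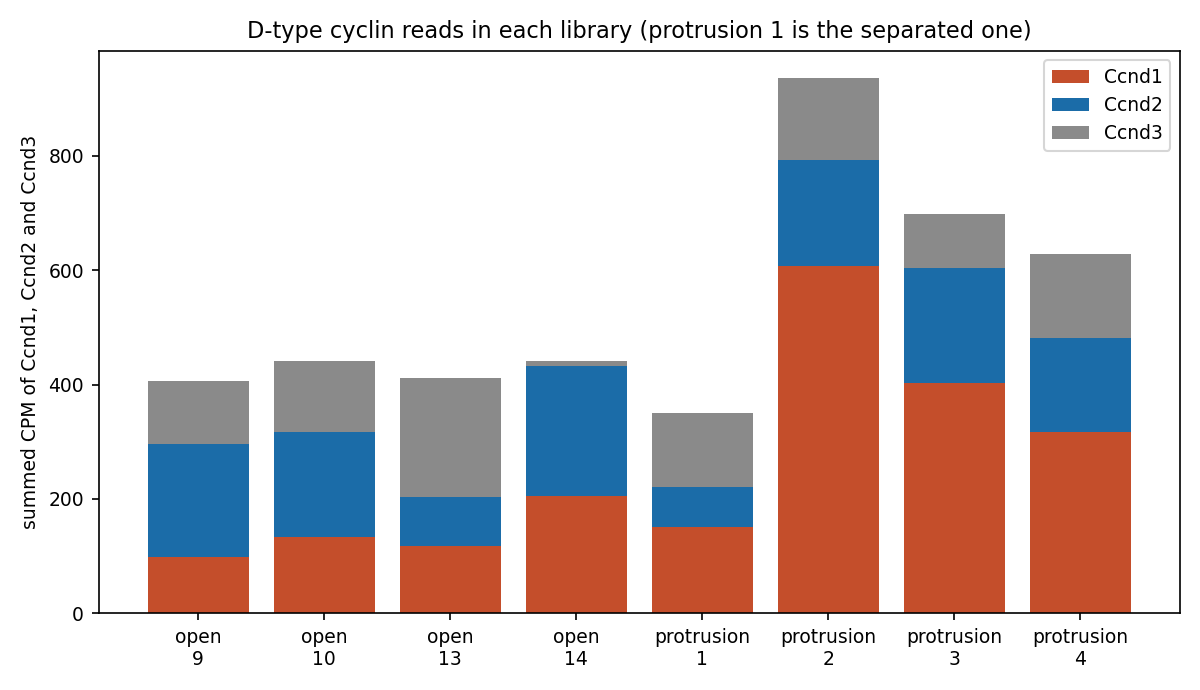
Reads of Ccnd1, Ccnd2 and Ccnd3 stacked for each library, in CPM; each bar is a library and its height is the sum of the 3 genes. The 4 open neural tubes reach nearly the same height with different parts, and the attached protrusions exceed them through the Ccnd1 part.

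The 3 D-type cyclins together came to nearly the same level in every open neural tube, although each of them varied. Their sum was 406 to 441 CPM, with a mean of 425 ± 18.4 CPM (SD, n = 4). In protrusions the sum was 350.4 CPM in the separated library and 628 to 937 CPM in the attached ones. The share of Ccnd1 in the sum was 24.3% to 46.3% among open neural tubes and 42.9% to 64.8% among protrusions. For Ccnd2 these shares were 20.8% to 51.8% and 19.9% to 28.9%. These sums are given as a description, without a test.

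The ratio of Ccnd1 to Ccnd2 within a library, with 1 CPM added to each, hardly depends on how libraries are scaled to each other. It was 0.504, 0.726, 1.37 and 0.894 in open neural tubes 9, 10, 13 and 14, and 2.13, 3.25, 1.99 and 1.91 in protrusions 1 to 4. The groups did not overlap, and the separated protrusion lay with the attached ones. On the log2 scale the ratio was −0.29 ± 0.60 in open neural tube and 1.18 ± 0.35 in protrusions (SD, n = 4 each), a difference of 1.47. The exact permutation test gave a 2-sided p of 0.0286, the smallest that 4 against 4 libraries allow, and 0.0571 adjusted over the 2 ratios tested, which misses 0.05.

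Cdk4, the kinase partner of D-type cyclins in most tissues, had 0 reads in all 8 libraries, which allows a level of up to 0.180 to 0.529 CPM for reads assigned to this gene. Its longest coding transcript holds 3 CATG sites, and all of its coding transcripts with such a site share the tag shown above. Of the 26608 symbols listed, 8487 were at 0 in all libraries. Whether the tags of Cdk4 were left out when reads were assigned to genes was not tested, so nothing is read from this 0 about its expression. The planned ratio of Cdk6 to Cdk4 could not be computed for this reason.

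Cdk6, the other kinase partner, was detected in 1 of 4 open neural tubes and in all 4 protrusions. It had 0 reads in open neural tubes 9, 10 and 13 and 32 reads in open neural tube 14, and 29, 81, 227 and 76 reads in protrusions 1 to 4. This corresponds to 3.82 CPM in open neural tube 14 and to 4.74, 11.6, 19.9 and 9.13 CPM in the protrusions. The groups did not overlap, but the separated protrusion and open neural tube 14 differed by less than 1 CPM. Fitted over all libraries, the log2 fold change was 3.44 ± 1.75 (SE; edgeR adjusted p = 0.393). It was 6.21 in limma-voom. The edgeR value rests on open neural tube 14, without which all open neural tubes are at 0. The fitted 9.69 (edgeR adjusted p = 0.0932) without it depends on the fitting and is no measure of size. At this level zeros are common in open neural tube: among 3003 genes with a mean within 2-fold of that of Cdk6, 21.1% of the open neural tube values and 0.816% of the protrusion values were at 0, and 5.46% of these genes were at 0 in at least 3 open neural tubes.

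Cdkn1b, which encodes the inhibitor p27, had nearly the same mean in both groups. It was 38.7, 60.9, 69.9 and 21.1 CPM in open neural tubes 9, 10, 13 and 14, and 48.8, 31.3, 61.5 and 48.0 CPM in protrusions 1 to 4. The means were 47.6 ± 22.0 and 47.4 ± 12.4 CPM (SD, n = 4 each), and all 4 protrusions lay inside the range of the open neural tubes. The fitted log2 fold change was −0.11 ± 0.37 (SE; edgeR adjusted p = 0.933), and it was above 0 when open neural tube 10 or 13 or protrusion 2 was left out.

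Rb1 was lower in every protrusion than in any open neural tube. It stood at 92.7, 55.8, 36.3 and 72.9 CPM in open neural tubes 9, 10, 13 and 14, and at 29.4, 18.9, 13.7 and 22.5 CPM in protrusions 1 to 4. The separated protrusion was the highest of its group, and open neural tube 13 the lowest of its own. The mean was 64.4 ± 24.1 CPM in open neural tube and 21.1 ± 6.60 CPM in protrusions (SD, n = 4 each), 0.328 times that of open neural tube. The log2 fold change was −1.69 ± 0.38 (SE), the smallest p among the members, and missed the threshold (edgeR adjusted p = 0.0740). It was −1.85 (edgeR adjusted p = 0.0531) without open neural tube 13 and −1.89 (edgeR adjusted p = 0.0593) without the separated protrusion. Without both libraries Rb1 fell with −2.09 (edgeR adjusted p = 0.0417), a comparison in which 1.88% of genes passed. Zeros were rare at this level: 0.505% of open neural tube values and 0.0306% of protrusion values of 3266 genes within 2-fold of its mean.

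Of the 9 members tested, 0 passed an adjusted p of 0.05 with all 8 libraries, where 0.607% of 11036 genes did (edgeR). An unadjusted p under 0.05 was found for 3 members, Rb1, Ccnd1 and Mycn, where 15.3% of all genes had one. Groups did not overlap for 2 members, against 13.4% of all genes: Cdk6 was higher in protrusions, as were 8.84% of genes, and Rb1 lower, as were 4.55%. A fitted fold change above 0 was found for 4 of the 9, and for 53.7% of all genes. The median log2 fold change of the members was −0.11 and that of all genes tested was 0.08. Against the attached protrusions alone, 1 member passed (Ccnd1) and 3 had an unadjusted p under 0.05, where 17.7% of genes had one. There 4 of 9 members were above 0, against 54% of genes. Groups did not overlap for Ccnd1 and Cdk6, both higher (17.9% of genes), and for Rb1, which was lower (6.94% of genes), or 24.8% of genes in either direction. Both comparisons share the open neural tubes. DESeq2, which called 7.2% of all genes, called Ccnd1 (adjusted p = 0.0170) and Rb1 (adjusted p = 0.00204). With limma-voom, which called 3.52%, Rb1 (adjusted p = 0.0493) and Cdk6 (adjusted p = 0.0343) passed. With sample weights, where 2.01% passed, Rb1 had an adjusted p of 0.0324, and with a filter of 20 CPM in 4 libraries, where 2.81% passed, one of 0.0455 in edgeR.

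**Figure D3:**
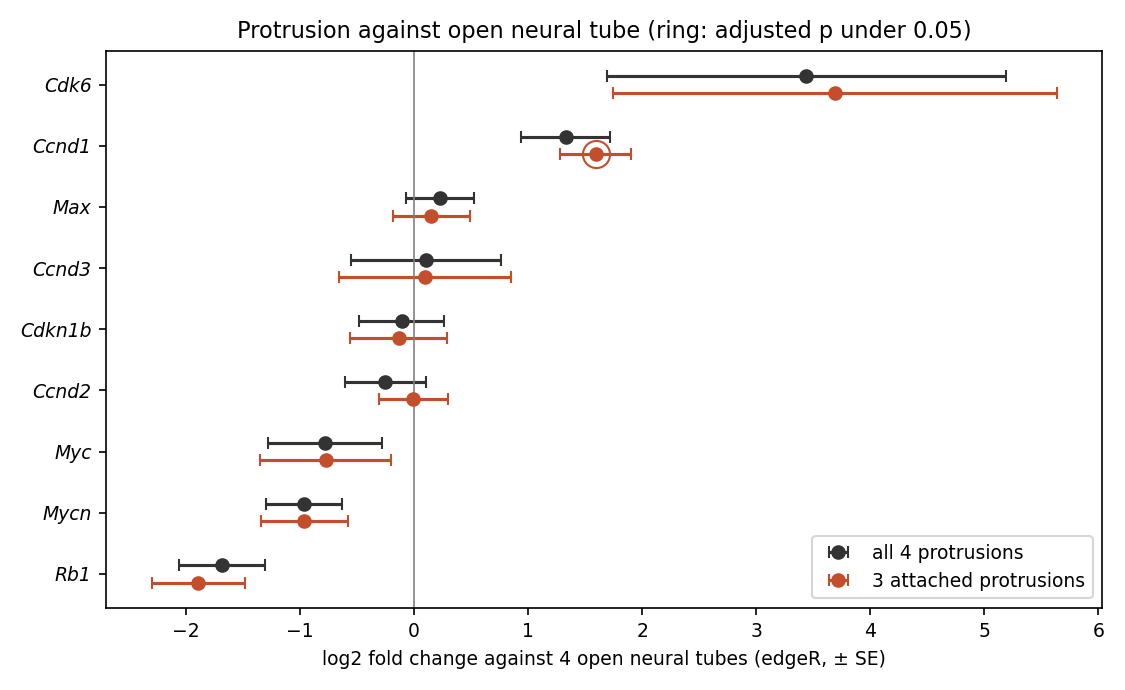
Fitted log2 fold change ± SE of the 9 tested members against the 4 open neural tubes, for all 4 protrusions (black) and for the 3 attached ones (red); both fits use the same open neural tubes. A ring marks an adjusted p under 0.05, which Ccnd1 reached against the attached protrusions at 1.59.

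The separated protrusion was a single library, so its values are set beside the 3 attached ones without a test. It lay below all attached protrusions for Ccnd1 (150.2 against 317 to 607 CPM), Ccnd2 (69.9 against 165 to 202 CPM) and Cdk6 (4.74 against 9.13 to 19.9 CPM). It lay above them for Rb1 (29.4 against 13.7 to 22.5 CPM). For Myc, Mycn, Max, Ccnd3 and Cdkn1b it lay within their range. The summed neural plate markers of this library (1279.7 CPM, against 518 to 905 CPM) and its endothelial markers (75.6 CPM, against 5.42 to 7.09 CPM) were also above those of the attached ones. Within the neural plate list Sox3 was lower (0 against 23.9 to 50.7 CPM). The library lay below all attached ones for the sums of paraxial mesoderm (818 against 846 to 1296 CPM), primitive erythroid (2.29 against 11.6 to 58.7 CPM) and endoderm markers (21.9 against 43.6 to 123 CPM). The part of these differences in the cyclin values was not tested.

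The E-box and the E2F motif are sequences that factors of this pathway bind, so the promoter table was searched for them on both strands. RefSeq promoter windows of GRCm38.p6 were in the table for Mycn, Max, Ccnd3, Cdk4, Cdk6 and Cdkn1b. In the 250 bases before the start site, CACGTG occurred at 1 place in Cdk6 and at 4 in Cdk4, where 6.02% of 32851 windows hold at least 1 and 0.0213% hold at least 4. The E2F motif TTTGGCGC occurred at 2 places in Mycn, where 0.417% of windows hold at least 1 and 0.00609% at least 2, and TTTCCCGC occurred in no member's window, against 0.895% of all windows. The windows of Mycn and Cdk4 are shown because they hold more than 1 copy of a motif, in capitals. A match is a description of the sequence and not a binding site.
Mycn, chr12:12941837-12942086, minus strand: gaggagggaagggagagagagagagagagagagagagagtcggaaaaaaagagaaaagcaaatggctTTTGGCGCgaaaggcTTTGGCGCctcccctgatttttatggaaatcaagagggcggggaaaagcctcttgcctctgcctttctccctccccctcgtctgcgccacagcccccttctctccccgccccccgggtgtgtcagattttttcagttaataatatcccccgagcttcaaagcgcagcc
Cdk4, chr10:127063285-127063534, plus strand: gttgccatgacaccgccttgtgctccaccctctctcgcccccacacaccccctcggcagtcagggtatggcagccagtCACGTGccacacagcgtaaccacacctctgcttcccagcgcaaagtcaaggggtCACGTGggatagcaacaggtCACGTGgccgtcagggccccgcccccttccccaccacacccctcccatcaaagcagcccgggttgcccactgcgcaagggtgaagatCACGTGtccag

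Other genes of the pathway were taken from 6 lists, and no list held a gene past the threshold with all 8 libraries in edgeR with its low-count filter. For comparison, 15.3% of all genes had an unadjusted p under 0.05, 53.7% a fitted fold change above 0, and DESeq2 called 7.2%. Groups did not overlap for 13.4% of all genes, of which 8.84% were higher and 4.55% lower in protrusions, as percentages of all genes. Among partners and antagonists of Myc and Max, 13 of 14 listed genes were tested, 6 had a fitted fold change above 0 and 3 an unadjusted p under 0.05, with a median log2 fold change of −0.0025 against 0.08 for all genes. Mxi1, an antagonist that competes for Max, stood at 7.88 to 22.4 CPM in open neural tube and 28.7 to 44.1 CPM in protrusions (log2 fold change 1.29 ± 0.39, edgeR adjusted p = 0.134). Ruvbl2, a helicase that works with Myc, stood at 160.4 to 237 CPM and 281 to 390.2 CPM (0.59 ± 0.19, edgeR adjusted p = 0.166). These 2 of the 13 tested were higher without overlap of the groups, as were 8.84% of all genes. DESeq2 called Mxi1 alone in this list (adjusted p = 0.0404).

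Nucleolar and growth genes known as targets of Myc were split in direction. Of 20 listed genes 17 were tested, 7 had a fitted fold change above 0 and 6 an unadjusted p under 0.05, with a median of −0.24. Rrs1, a ribosome assembly factor, stood at 861 to 1175 CPM in open neural tube and 474 to 808 CPM in protrusions (−0.95 ± 0.23, edgeR adjusted p = 0.0823). Eif4e, the cap-binding translation factor, stood at 202 to 251 CPM and 297 to 417 CPM (0.64 ± 0.17, edgeR adjusted p = 0.0895). DESeq2 called 1 of the list higher and 2 lower, and limma-voom called Rrs1 lower (adjusted p = 0.0289).

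Inhibitors other than Cdkn1b were few. Of 6 listed CDK inhibitors 2 were tested, and the median over so few genes is not read. Cdkn1a, which encodes p21, was 2.86, 0.176, 3.06 and 3.58 CPM in open neural tubes 9, 10, 13 and 14, and 13.7, 49.5, 51.8 and 29.8 CPM in protrusions 1 to 4. All protrusions lay above all open neural tubes, as in 8.84% of all genes, and the separated protrusion was the lowest of its group. The log2 fold change was 3.75 ± 0.77 (SE; edgeR adjusted p = 0.0615), and without the separated protrusion Cdkn1a rose by 4.02 (edgeR adjusted p = 0.0468). With open neural tube 13 also left out the value was 4.15 (edgeR adjusted p = 0.0557), which ended the call. Over all 8 libraries it passed in edgeR with no low-count filter (adjusted p = 0.0419) and in DESeq2 (adjusted p = 1.95e-05), but not in limma-voom (adjusted p = 0.0756). The value in open neural tube 10 lies under the floor, and fold changes of genes this low depend on few reads. Cdkn1c, which encodes p57, stood at 8.39 to 21.9 CPM in open neural tube and 4.25 to 10.7 CPM in protrusions (−1.32 ± 0.60, edgeR adjusted p = 0.328).

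Genes that act after the D-type cyclins came next. Among cyclin E, Cdk2 and their regulators 12 of 12 were tested, 9 had a fitted fold change above 0 and 2 an unadjusted p under 0.05, with a median of 0.28, and DESeq2 and limma-voom called 0. Cdk2, the kinase of the G1 to S transition, stood at 169 to 232 CPM in open neural tube and 114 to 187 CPM in protrusions (−0.66 ± 0.22, edgeR adjusted p = 0.171). Ccnh, a subunit of the kinase that activates other cyclin-dependent kinases, stood at 45.8 to 92.6 CPM and 40.6 to 53.4 CPM (−0.70 ± 0.26, edgeR adjusted p = 0.218).

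The Rb relatives and E2F factors were all tested, 15 of 15, with 9 above 0, 2 with an unadjusted p under 0.05 and a median of 0.08. E2f6, a repressive E2F, stood at 146 to 218 CPM in open neural tube and 102 to 143 CPM in protrusions (−0.73 ± 0.19, edgeR adjusted p = 0.0893, called by DESeq2 with adjusted p = 0.0164). Lin9, a subunit of the DREAM complex, had means of 17.6 ± 7.66 and 8.09 ± 3.09 CPM (SD, n = 4 each; −1.22 ± 0.53, edgeR adjusted p = 0.305).

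Of 10 genes that control Myc from above or its protein turnover 9 were tested, with 4 above 0, 5 with an unadjusted p under 0.05 and a median of −0.21. Usp28, a deubiquitinase that stabilizes Myc, stood at 35.7 to 67.1 CPM in open neural tube and 18.2 to 30.4 CPM in protrusions (−1.21 ± 0.31, edgeR adjusted p = 0.0832). Ctcf, the insulator protein that binds the Myc locus, stood at 341 to 419 CPM and 176 to 334 CPM (−0.63 ± 0.19, edgeR adjusted p = 0.123). Both genes were lower without overlap of the groups, as were 4.55% of all genes. DESeq2 called both lower (adjusted p = 0.0137 and 0.0434) and called Lef1 higher, the only other gene of the list it called. Lef1 stood at 0 to 3.90 CPM in open neural tube and 0.491 to 76.7 CPM in protrusions, with overlap (4.58 ± 1.40, edgeR adjusted p = 0.138).

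**Figure D4:**
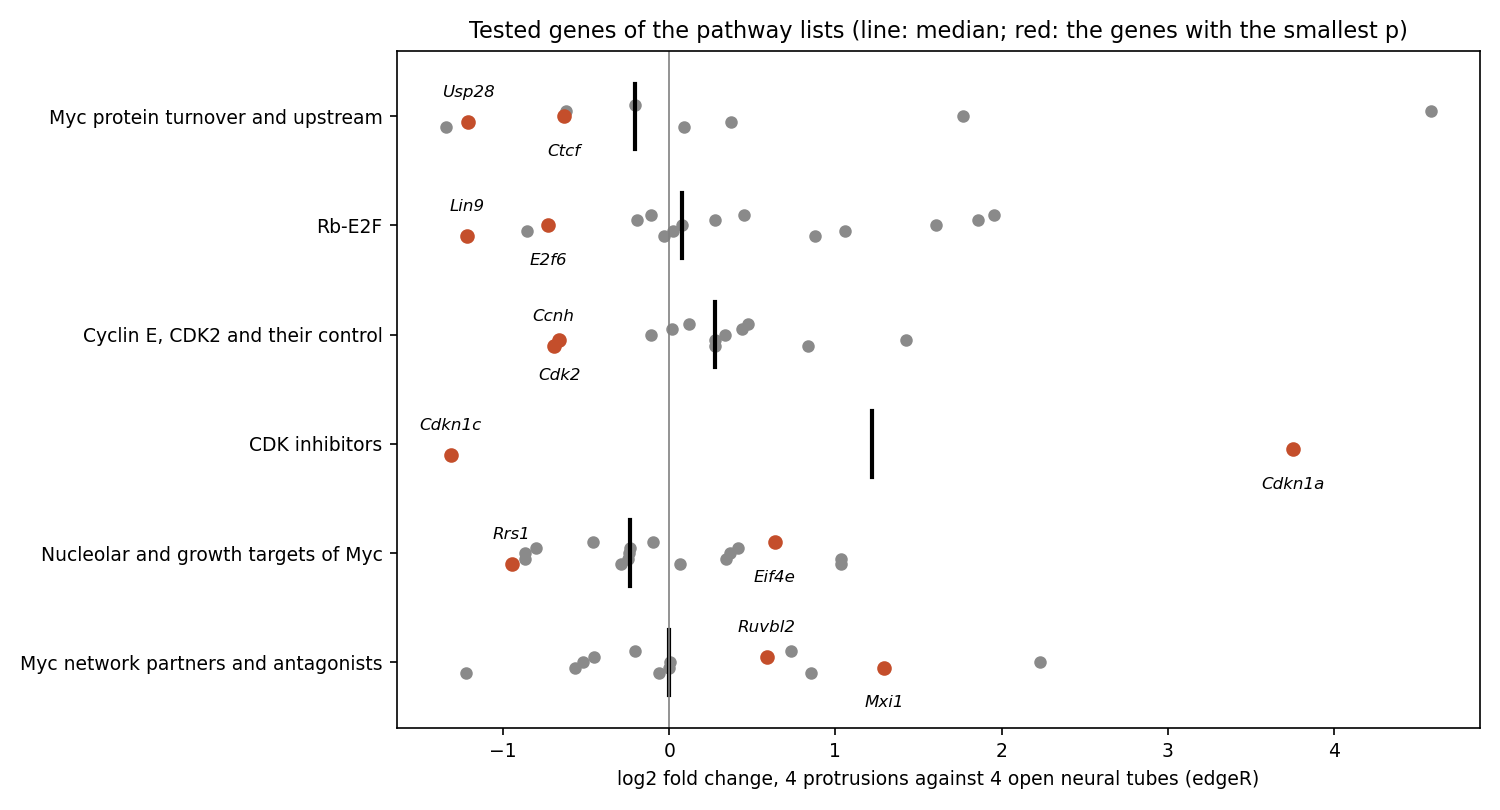
Fitted log2 fold change of the tested genes of the 6 pathway lists, 4 protrusions against 4 open neural tubes; each point is a gene, the black line the median of its list, and red the genes with the smallest p. Medians lie between −0.24 and 0.28 except among the CDK inhibitors, where 2 genes were tested.

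Genes whose course over the 8 libraries was nearest to that of Myc or Mycn were found by the root mean square difference of log2 CPM centred on each gene's mean, among genes of at least 20 CPM. Nearest to Myc were Epc1 (0.23), Zfp821 (0.27) and Ilf2 (0.27), and nearest to Mycn were Ankzf1 (0.30), Pppde1 (0.30) and Kif1b (0.31). Epc1, like Myc, was lowest in protrusion 3 (20.4 CPM) and highest in open neural tube 10 (89.6 CPM). Kif1b, like Mycn, was lowest in protrusion 2 (76.7 CPM), and its level in open neural tube 13 (126 CPM) was below that of the other open neural tubes (216 to 257 CPM). Among the members themselves, the nearest pair was Max and Ccnd2 (0.59), followed by Mycn and Rb1 (0.60).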

How the data were processed

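Each file holds whole-number tag counts per gene symbol, as deposited by the authors, without normalization. SOLiD SAGE libraries were made from 7 to 12 ng of RNA, per the labels' protocols. Build mm9 is named in the submitters' processing notes. How tags were mapped, given to genes and treated by strand was not given in the sources used here. Groups were taken from source names, the numbers of open neural tubes from titles and those of protrusions from listing order. CPM are counts scaled to library totals, computed here.

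Genes passing filterByExpr (minimum count 10) were fitted using edgeR 4.0.16 (R 4.3.3): TMM factors, robust quasi-likelihood F test, 2-sided, Benjamini-Hochberg adjustment, threshold 0.05. SEs were derived from the F statistic. DESeq2 1.42.0 and limma 3.58.1 voom were alternatives. Ratios used exact permutation (SciPy 1.17.1). The members and lists were chosen with earlier results of these data known. All members are named, and from each list those past the threshold (up to 4) or else the 2 with the smallest p. The 3 genes nearest in pattern to Myc and to Mycn are named too; Lef1 was chosen after its values were seen. Reads copied by PCR are not independent molecules, so floors cover counting error only.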

Additional observations from a re-analysis of the deposited data

Results flagged for a closer look

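Cdk6 in open neural tube 14, at 3.82 CPM, stood far from the other 3 open neural tubes, which were all at 0. Of 18 sets of 4 libraries examined (9 members in 2 groups) this was the only one so marked. The chance rate of about 1 in 20 holds for continuous values and not here, since any set with 3 zeros and 1 other value is marked.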

How the results depend on the processing

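The count of 67 genes past the threshold in edgeR became 103 with upper-quartile factors, 157 with a filter of 20 CPM in 4 libraries, 795 with DESeq2, 389 with limma-voom, 222 with sample weights and 211 without both protrusion 1 and open neural tube 13. Leaving out single libraries gave 1 to 172: 1, 8, 52 and 2 without open neural tube 9, 10, 13 and 14, and 172, 19, 22 and 6 without protrusion 1, 2, 3 and 4. The Mycn to Myc difference of −0.07 ranged from −0.51 to 0.23 with single libraries left out, and the Ccnd1 to Ccnd2 difference of 1.47 from 1.24 to 1.72, where 4 against 3 libraries cannot reach 0.05. The fold change of Max was −0.025 without both protrusion 1 and open neural tube 13, and that of Cdkn1b 0.13. With single libraries left out, Ccnd3 ranged from −0.23 to 0.63 and Cdkn1b from −0.31 to 0.18. Cdk6 ranged from 3.07 to 3.69, except for 9.69 without open neural tube 14, where the other open neural tubes are at 0. The cause was not tested. Rb1 passed in 5 of 17 alternatives (adjusted p 0.00204 to 0.219), Ccnd1 in 2 of 17 (0.0170 to 0.268) and Cdk6 in 1 of 16 (0.0343 to 0.677); Mycn and Myc passed in none of those run. Myc, Mycn, Ccnd1, Ccnd2, Cdk6 and Rb1 kept their direction in every alternative run. No paired analysis was run, because the labels give no pairing of libraries between the groups. The Cdk6 to Cdk4 ratio was not run, since Cdk4 was at 0.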
